A study of Mus musculus with 9 samples.

Results

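The 10 genes described here code for alpha and beta tubulin isotypes of the mouse: Tuba1a, Tuba1b, Tuba1c and Tuba4a on the alpha side, and Tubb2a, Tubb2b, Tubb3, Tubb4a, Tubb4b and Tubb5 on the beta side. They were taken by name, and all 10 were found among the 53379 gene identifiers of each count table and passed the filter on low counts. The RNA came from embryonic forebrain cells of C57Bl6DBa2 mice, electroporated in the uterus at E14.5 (embryonic day) and sorted for GFP at E16.5, which is 2 days later. The GemC1 group carried pCAGGS-GemC1, the Mcidas group carried pCAAGS-Mcidas, and the GFP group carried H2B-GFP, with 3 libraries each. GemC1 and Mcidas, both relatives of geminin, switch on the genes of multiciliated cells, and the series set out to study how GemC1 does so. The protocol text leaves unclear whether the first and second groups also received H2B-GFP. The plasmids drive the factors from a strong, broadly active promoter, so the levels are not those of the cells' own genes.

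Microtubules are built from heterodimers of 1 alpha and 1 beta tubulin. The isotypes differ mainly in their acidic C-terminal tails, where enzymes add and remove glutamate, glycine and tyrosine residues. In brain, Tuba1a, Tubb2b and Tubb3 are known from newborn neurons, Tubb5 from dividing progenitors, and Tubb4b from the axonemes of motile cilia. Cells also hold tubulin mRNA in check by an autoregulatory loop in which TTC5 recognises the first residues of nascent alpha and beta tubulin at the ribosome, and the mRNA is then degraded.

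The sequences at the ends of the reading frames are shown first. The likeness of the whole frames, which bears on how far short reads can separate the members, follows. The first 4 codons, which code for the stretch that TTC5 reads, were atgcgtgagtgc in Tuba1a, Tuba1b and Tuba1c and atgagggagatc in Tubb3 and Tubb4b. The last 60 coding bases, which carry the tail and the stop codon, are given below 5′ to 3′ from GENCODE M21 transcripts (build GRCm38) for the beta genes whose values are followed most closely. Capitals mark the bases that differ from Tubb5 at the same position counted from the end.
Tubb5: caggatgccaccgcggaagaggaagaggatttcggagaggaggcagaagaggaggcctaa
Tubb4b: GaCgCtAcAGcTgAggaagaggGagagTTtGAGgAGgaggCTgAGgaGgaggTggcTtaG
Tubb3: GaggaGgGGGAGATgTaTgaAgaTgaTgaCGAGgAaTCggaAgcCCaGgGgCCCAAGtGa
Tubb2b: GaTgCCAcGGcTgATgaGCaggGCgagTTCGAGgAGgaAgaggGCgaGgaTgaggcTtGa

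Against Tubb5, lined up from the end without gaps, Tubb4b differed at 24 of these 60 bases, Tubb2b at 29 and Tubb3 at 33. The reading frames differ in length, with 1335 bases in Tubb5, 1338 in Tubb4b and Tubb2b, and 1353 in Tubb3. Some codons that match after a shift are therefore marked as different, and these numbers do not measure how alike the tails are. Over the whole reading frame Tuba1a and Tuba1b were 98.3% identical, Tuba1b and Tuba1c 97.9%, and Tubb2a and Tubb2b 96.5%. All other pairs of beta genes lay between 81.2% and 84.5%. Of all the windows of 75 bases (the read length) along the transcript, 78.3% in Tuba1b, 70.4% in Tuba1a and 56.7% in Tuba1c occurred word for word in another annotated gene. In Tuba1b 58.8% of windows occurred in another of the 10 isotypes. Tubb2a shared 43.2% and Tubb2b 32.2% of their windows. Tubb3, Tubb4a and Tubb5 shared 0%. How reads with several possible origins were treated is not given in the sources used here. The levels of Tuba1a, Tuba1b, Tuba1c, Tubb2a and Tubb2b are thus uncertain in so far as such reads were dropped or divided. The same holds for Tubb4b and Tuba4a, which shared 40.9% and 47.2% of their windows, as described below.

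**Figure D1:**
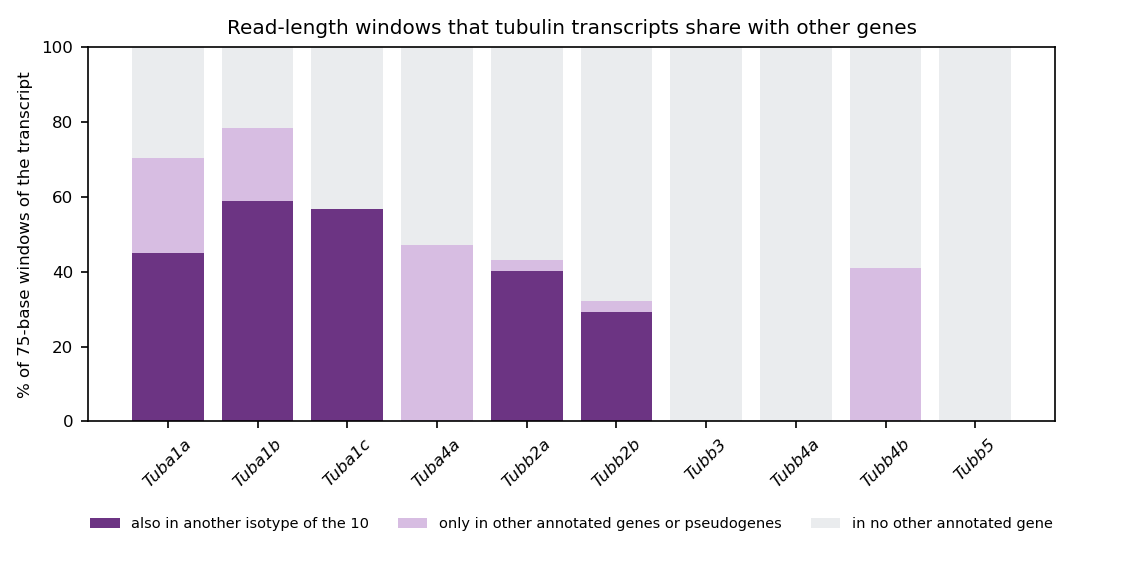
Share of 75-base windows of each isotype's transcript (y axis, percent) that also occur in another of the 10 isotypes (dark), in other annotated genes or pseudogenes alone (light) or in no other annotated gene (grey). The 3 isotypes Tubb3, Tubb4a and Tubb5 share 0% of their windows, against 78.3% in Tuba1b.

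Tubb4b shared 40.9% of its windows, and these lay in its pseudogenes Tubb4b-ps1 and Tubb4b-ps2, in Gm16165 and in Fam166a. The pseudogenes held between 0 and 8 counts in any library, numbers that would leave out any shared reads that were dropped. Tubb4b lies on the minus strand of chromosome 2 (GRCm38, 25222160 to 25224702), and its last 121 bp, at 25222160 to 25222280, overlap the gene Fam166a on the other strand. Neither library kit marks strand, so reads from these 121 bp cannot be assigned to either gene by direction. Fam166a averaged 12.8 CPM in GemC1 libraries, 13.5 CPM in Mcidas libraries and 9.21 CPM in GFP libraries, where CPM is the count brought to the same library size in every sample. Tuba4a shared 47.2% of its windows with Stk16, its neighbour on chromosome 1.

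The genes carried by the plasmids were each highest in the group labelled with them. Gmnc, the gene for GemC1, stood at 223 to 317 CPM in GemC1 libraries, at most 0.26 CPM in Mcidas libraries and at 0 in all 3 GFP libraries, where 3 counts would be at most 0.09 CPM. Mcidas stood at 388 to 597 CPM in Mcidas libraries, 60.3 to 76.8 CPM in GemC1 libraries and 0.647 to 0.69 CPM in GFP libraries. Its log2 fold change for GemC1 against GFP was 6.71 ± 0.21 (SE), with an adjusted p of 4.79e-09 in edgeR's quasi-likelihood test. The GemC1 libraries thus held mRNA of both factors. Total counts ran from 22914704 to 41163917 per library. Markers of neurons and of radial glia were both present in every library, with summed levels of 2709 to 3894 CPM over 16 neuron markers and 1633 to 2605 CPM over 13 radial glia markers, although the cells were labelled neural progenitors. Because these are bulk samples, fewer cells of a type and less RNA per cell cannot be told apart in any value below. The Mcidas tables carry a code with another year than those of the GemC1 and GFP groups. What that code records is not given, and it cannot be told apart from the Mcidas group. The p-values measure the spread between these libraries, since the labels do not say whether replicates came from separate litters.

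The 10 isotypes together took 0.673% ± 0.0636 of all counts in GemC1 libraries, 0.669% ± 0.019 in Mcidas libraries and 0.704% ± 0.0463 in GFP libraries (SD, n = 3 each). The GemC1 range of 0.608% to 0.735% enclosed the Mcidas libraries and met the GFP range of 0.653% to 0.743%. To compare isotypes with each other, CPM was divided by exon length in kb. On that scale Tuba1a, the main alpha isotype of migrating neurons, stood first in all groups, with 1837 ± 241 CPM per kb in GemC1, 1814 ± 13 in Mcidas and 2000 ± 148 in GFP libraries. Tubb3, the neuronal beta isotype, and Tubb5 followed, and their ranges overlapped within each group. Tubb3 had 499 ± 54.8 CPM per kb in GemC1, 486 ± 18.1 in Mcidas and 557 ± 48.9 in GFP libraries. Tubb2b came next and stood apart from its neighbours on both sides in every group. Tuba4a, an isotype better known from mature neurons and muscle, came last with 6.42 ± 1.31 CPM per kb in GemC1, 5.65 ± 0.637 in Mcidas and 6.01 ± 1.17 in GFP libraries.

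In the middle of this order the groups were arranged differently. Tuba1b and Tubb4b held ranks 5 and 6 in the GemC1 and Mcidas libraries, ahead of Tubb2a and Tubb4a by their means, but the ranges of these 4 genes overlapped from each to the next. In GFP libraries they held ranks 7 and 8, and there the range of Tuba1b lay wholly below that of Tubb4a.

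**Figure D2:**
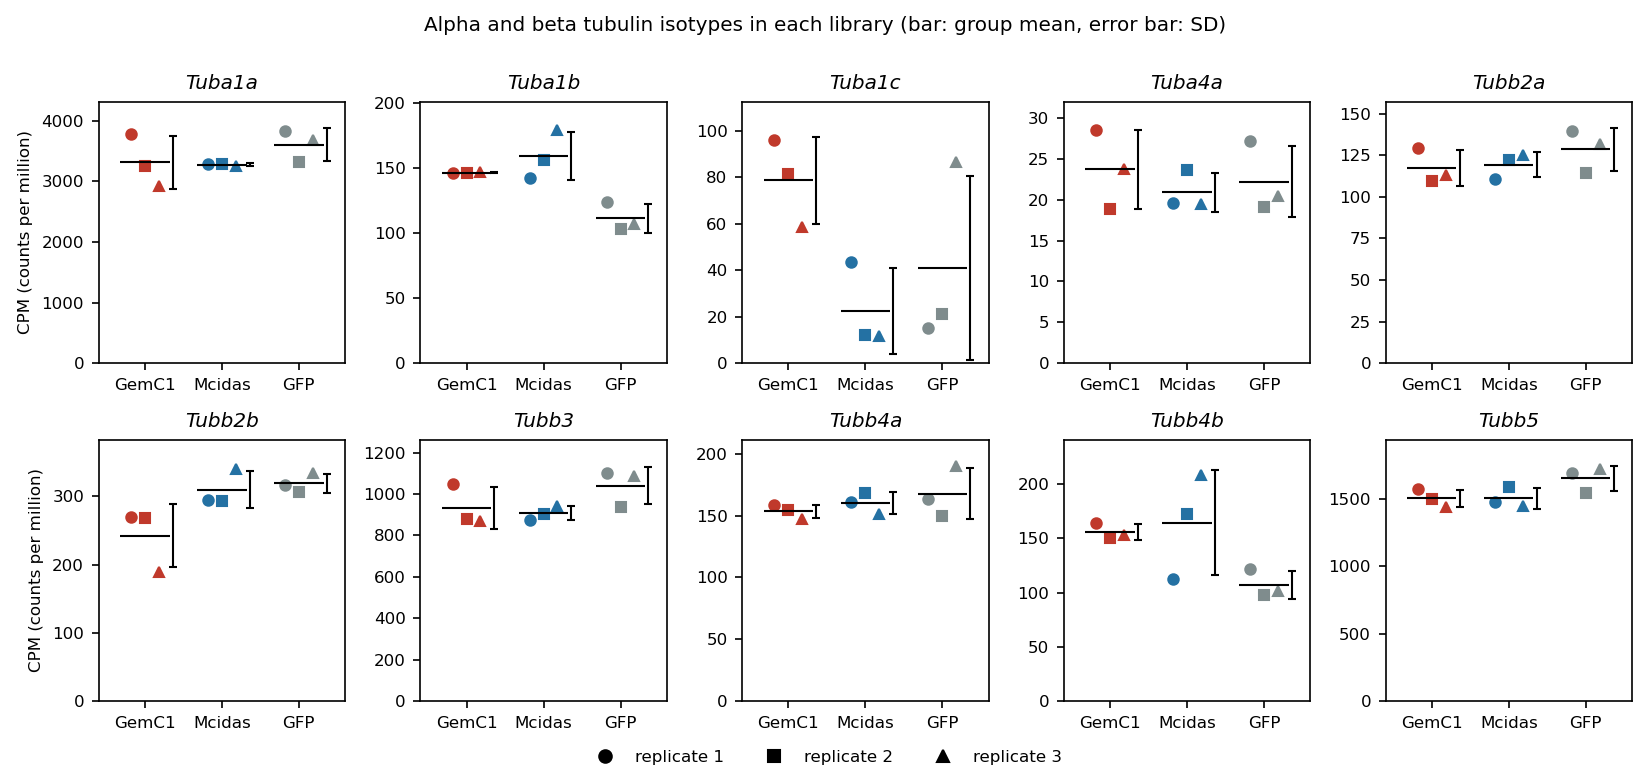
CPM of the 10 isotypes (y axes, from 0, a scale for each panel) in the GemC1, Mcidas and GFP libraries, with a point for each library, a bar for the group mean and an error bar for the SD. For Tuba1b all GemC1 and Mcidas libraries lie above all GFP libraries, and Tuba1c runs from 11.6 to 96 CPM with wide scatter inside groups.

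Tuba1b, a broadly expressed alpha isotype, was the only member of the 10 called in either comparison with GFP, where 5.19% of the 19572 genes tested were called for GemC1 and 4.35% for Mcidas. The gene lies on the minus strand of chromosome 15 (98931425 to 98934565). Tuba1b stood at 146.2, 146.1 and 146.4 CPM in the GemC1 libraries, at 142, 156 and 179 CPM in the Mcidas libraries, and at 124, 103 and 106 CPM in the GFP libraries. All 6 libraries with a factor lay above all 3 GFP libraries. The log2 fold change was 0.40 ± 0.10 (SE) for GemC1 against GFP, with an adjusted p of 0.037 in edgeR's quasi-likelihood test, and 0.52 ± 0.10 for Mcidas against GFP, with an adjusted p of 0.00707 in the same test. As folds these were 1.32 (95% interval 1.14 to 1.53) and 1.43 (1.23 to 1.66). The Mcidas call held when each library was left out in turn, with adjusted p between 0.00263 and 0.0433 in edgeR. The GemC1 call did not hold without any single GemC1 library (adjusted p 0.0795, 0.0752 and 0.0817 in edgeR without replicates 1, 2 and 3), without GFP replicate 2 (0.153) or 3 (0.158), or without Mcidas replicate 2 (0.0616), while the log2 fold change stayed between 0.35 and 0.49 over the 9 fits that leave out 1 library.

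Of the whole set, 1 of 10 members was called higher and 0 were called lower in GemC1, where 3.86% of all genes tested were called higher and 1.32% lower. DESeq2 called 2 higher (Tuba1b and Tubb4b) and 1 lower (Tubb2b), and at an unadjusted p under 0.05 edgeR gave the same numbers, 2 and 1. In Mcidas, 1 of 10 was called higher and 0 lower, where 4.03% of all genes were called higher and 0.327% lower. DESeq2 called 2 higher and 0 lower there, and edgeR at an unadjusted p under 0.05 also gave 2 and 0. The median log2 fold change of the 10 members was -0.13 in GemC1, beside -0.000384 over all genes, and -0.10 in Mcidas, beside -0.03 over all genes. Both comparisons use the same 3 GFP libraries.

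**Figure D3:**
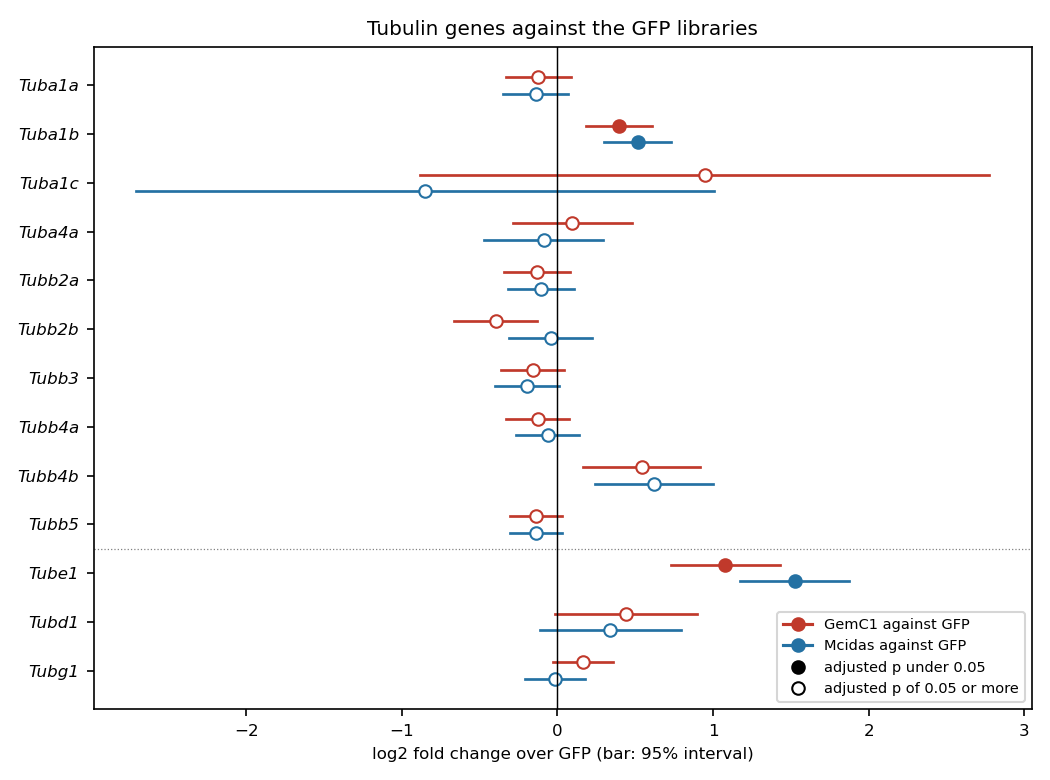
Log2 fold changes over GFP (x axis) with 95% intervals for the 10 isotypes and, below the dotted line, Tube1, Tubd1 and Tubg1, with GemC1 above Mcidas for each gene. Filled points had an adjusted p under 0.05 in edgeR, which among the isotypes applies to Tuba1b alone, at 0.40 and 0.52.

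The main alpha isotype Tuba1a moved little. It had 3776, 3244 and 2916 CPM in GemC1 libraries, 3286, 3284 and 3244 CPM in Mcidas libraries, and 3825, 3310 and 3685 CPM in GFP libraries. All 3 Mcidas libraries lay below the lowest GFP library, by a small margin, and the GemC1 libraries overlapped both groups. Its log2 fold change was -0.12 (95% interval -0.33 to 0.09) for GemC1 and -0.14 (-0.35 to 0.07) for Mcidas against GFP, and neither was called.

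Tuba1c, a minor alpha isotype here, was the least steady member. It had 96, 81.5 and 58.7 CPM in GemC1 libraries, 43.7, 12.2 and 11.6 CPM in Mcidas libraries, and 15.2, 21 and 86.5 CPM in GFP libraries. GemC1 libraries were all above Mcidas libraries, but a single GFP library, replicate 3, reached the GemC1 level and the other 2 stood near the lower Mcidas libraries. The log2 fold changes over GFP were 0.95 ± 0.78 for GemC1 and -0.85 ± 0.79 for Mcidas, and neither was called. Without GFP replicate 3 the GemC1 value was 2.12 and the Mcidas value 0.33, the opposite sign from that with all libraries, and neither was called (adjusted p 0.177 and 0.973 in edgeR). Tuba4a, with 18.9 to 28.6 CPM in GemC1, 19.4 to 23.6 CPM in Mcidas and 19.1 to 27.2 CPM in GFP libraries, overlapped in all 3 groups.

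Tubb4b, the beta isotype known from motile cilia, had 164, 151 and 153 CPM in GemC1 libraries, 112, 173 and 209 CPM in Mcidas libraries, and 121, 97.9 and 102 CPM in GFP libraries. The GemC1 libraries all lay above the GFP libraries. Among the Mcidas libraries, replicates 2 and 3 lay above every other library of either other group and replicate 1 lay inside the GFP range. The log2 fold change was 0.54 ± 0.17 for GemC1, a fold of 1.46 (95% interval 1.12 to 1.89), and 0.62 ± 0.17 for Mcidas, a fold of 1.54 (1.18 to 2.00). Neither was called in edgeR, with adjusted p of 0.0997 for GemC1 and 0.0757 for Mcidas. DESeq2 called both, with adjusted p of 0.0276 for GemC1 and 0.00732 for Mcidas. Without Mcidas replicate 1 the adjusted p in edgeR was 0.0078 for GemC1 and 0.000456 for Mcidas, at log2 fold changes of 0.55 and 0.84. The fit of only the GemC1 and GFP libraries also called the GemC1 value (adjusted p 0.0091 in edgeR). Over all 15 alternatives the adjusted p ran from 0.0078 to 0.297 for GemC1 and from 0.000456 to 0.336 for Mcidas. Fam166a, which overlaps the end of Tubb4b, had log2 fold changes of 0.47 ± 0.19 for GemC1 and 0.55 ± 0.19 for Mcidas, adjusted p of 0.187 and 0.18 in edgeR. Its part in the Tubb4b values was not tested.

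Tubb2b, a beta isotype of newborn neurons and radial glia, had the most negative fold change of the 10 members in GemC1 against GFP. It had 269.8, 268.2 and 188.9 CPM in GemC1 libraries, 295, 293 and 341 CPM in Mcidas libraries, and 316, 307 and 334 CPM in GFP libraries. The GemC1 libraries lay below all others and replicate 3 stood lowest. The log2 fold change was -0.40 ± 0.12 for GemC1 against GFP (adjusted p 0.089 in edgeR) and -0.04 ± 0.12 for Mcidas against GFP. The GemC1 value was not called, though DESeq2 called it (adjusted p 0.0325), as did edgeR with no filter on low counts (adjusted p 0.0133). Without GemC1 replicate 3 it was -0.25, with an adjusted p of 0.175 in edgeR, and over all 15 alternatives the adjusted p ran from 0.0133 to 0.286.

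The neuronal isotype Tubb3 had 1050, 878 and 868 CPM in GemC1 libraries, 875, 906 and 942 CPM in Mcidas libraries, and 1101, 936 and 1086 CPM in GFP libraries. The groups overlapped. Its log2 fold change was -0.16 (95% interval -0.36 to 0.04) for GemC1 and -0.20 (-0.40 to 0.01) for Mcidas, and neither was called. Tubb5, the abundant isotype of progenitors, had 1440 to 1570 CPM in GemC1, 1445 to 1589 CPM in Mcidas and 1545 to 1721 CPM in GFP libraries, with log2 fold changes of -0.14 ± 0.08 in both comparisons. Tubb2a, a neuronal isotype, and Tubb4a, an isotype of mature neurons and oligodendrocytes, had values between -0.13 and -0.06 in both comparisons and overlapped in all groups.

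In numbers of members whose libraries did not overlap, GemC1 was wholly above GFP in 2 of 10 (Tuba1b and Tubb4b), where 13.2% of all genes were, and wholly below in 1 of 10 (Tubb2b), where 11.7% were. Mcidas was wholly above GFP in 1 of 10 (Tuba1b), beside 10.7% of all genes, and wholly below in 1 of 10 (Tuba1a), beside 8.87%. With 10 members these numbers are close to the background.

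The factors were also set against each other. Of the 10 members 0 were called for GemC1 against Mcidas in edgeR, where 0.0511% of genes were called, 0.0153% higher and 0.0358% lower. At an unadjusted p under 0.05 edgeR gave 1, Tubb2b, lower in GemC1, and DESeq2 called 0. GemC1 libraries were wholly above Mcidas libraries in 1 member (Tuba1c; 9.07% of all genes) and wholly below in 1 (Tubb2b; 7.64%). The log2 difference was -0.12 (95% interval -0.33 to 0.09) for Tuba1b, -0.08 (-0.45 to 0.30) for Tubb4b, -0.35 (-0.62 to -0.09) for Tubb2b and 1.79 (-0.09 to 3.68) for Tuba1c. Of these 4 intervals only that of Tubb2b leaves out 0.

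Expressed as the share of an isotype in its own family, per kb of exon, the alpha pool was nearly all Tuba1a: 93.9% ± 0.323 in GemC1, 94.8% ± 0.295 in Mcidas and 96% ± 0.597 in GFP libraries. Tuba1b made up 4.03% ± 0.505 in GemC1, 4.43% ± 0.536 in Mcidas and 2.84% ± 0.18 in GFP libraries, with no GFP library reaching the lowest of the others. In the beta pool Tubb4b made up 5.87% ± 0.248 in GemC1, 6.03% ± 1.58 in Mcidas and 3.66% ± 0.334 in GFP libraries. By share every library with a factor lay above every GFP library, Mcidas replicate 1 included, at 4.36% against at most 4.003% in GFP. In CPM, Tubb4b in Mcidas replicate 1 (112) was below GFP replicate 1 (121). The summed beta level was also lower there, at 1235 against 1453 CPM per kb. Shares have no background over all genes to set beside them. Tubb2b made up 8.27% ± 1.24 in GemC1, 10.4% ± 0.749 in Mcidas and 9.96% ± 0.46 in GFP libraries, and Tubb3 made up 39.1% ± 1.49 in GemC1, 37.5% ± 0.738 in Mcidas and 39.8% ± 0.773 in GFP libraries. A scale added after seeing the data divided the same counts by the number of windows that no other annotated gene shares. On it Tubb4b made up 10.5% ± 0.44 in GemC1, 10.7% ± 2.65 in Mcidas and 6.64% ± 0.586 in GFP libraries. Only the divisor changed, and reads from shared windows were not taken out of the counts. The scale would be apt only if all such reads had been dropped, which is not known. These shares describe the chosen members and carry no test, and any loss of shared reads would enter them.

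**Figure D4:**
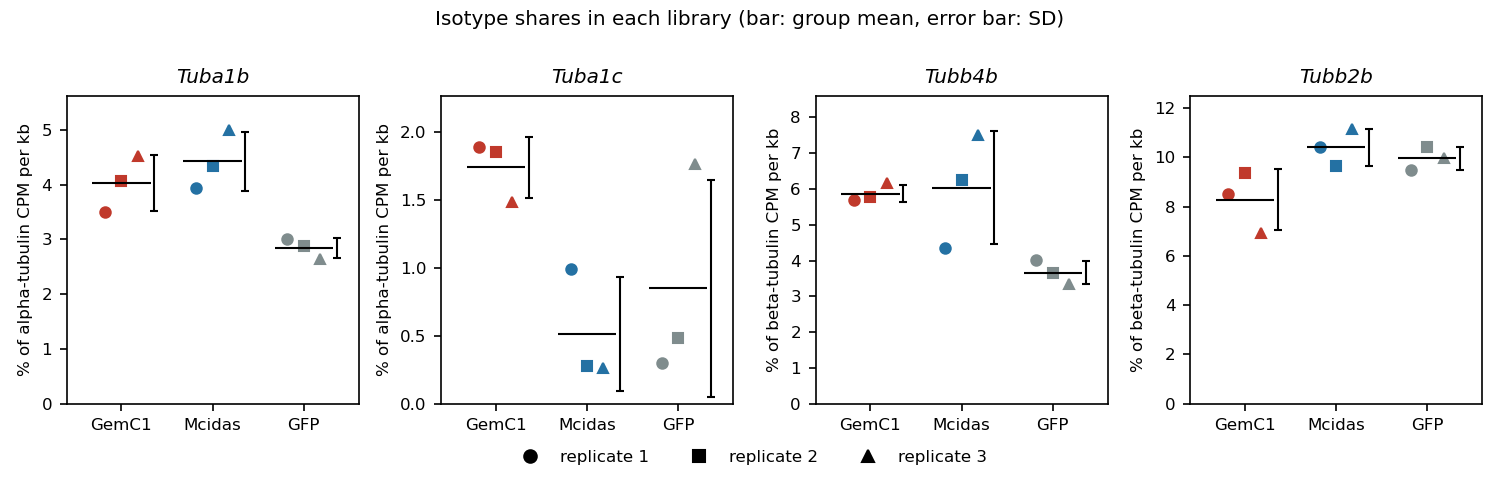
Share of Tuba1b and Tuba1c in the alpha family and of Tubb4b and Tubb2b in the beta family (y axes, percent of summed CPM per kb, from 0) in each library of the GemC1, Mcidas and GFP groups, with group mean and SD. Tubb4b averages 5.87% and 6.03% in the GemC1 and Mcidas libraries and 3.66% in GFP libraries.

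Among the other tubulin genes, Tube1 rose in both comparisons with GFP. It codes for epsilon tubulin, which belongs to centrioles and basal bodies and not to the microtubule wall. Tube1 had 18.1, 28.4 and 25.9 CPM in GemC1 libraries, 30.3, 36.7 and 31.7 CPM in Mcidas libraries, and 11.05, 11.6 and 11.6 CPM in GFP libraries. All GFP libraries were lower than all others. It rose by a log2 fold change of 1.08 ± 0.16 in GemC1 (adjusted p 0.00151, edgeR) and 1.52 ± 0.16 in Mcidas (adjusted p 7.33e-05, edgeR), and was called in all 15 alternatives in both. Tubd1, the delta tubulin of centriole triplets, had log2 fold changes of 0.44 ± 0.21 in GemC1 and 0.34 ± 0.21 in Mcidas and was not called. Tubg1, the main gamma tubulin, had 0.16 ± 0.09 in GemC1 and -0.02 ± 0.09 in Mcidas, also not called, and neither Tubg2 nor Tubb6 was called. Of the 5 genes tested, edgeR at an unadjusted p under 0.05 and DESeq2 each gave 1 higher and 0 lower in both comparisons. The other 5 genes of this list, Tuba3a, Tuba3b, Tuba8, Tubal3 and Tubb1, were not tested, with at most 31 counts in any library.

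The stretch before the start site of Tubb4b is shown because this is the isotype known from motile cilia, and cilia genes are often read through RFX and forkhead sites. It was chosen after its values were seen. It runs 250 bases up to the start annotated by RefSeq (GRCm38.p6), 5′ to 3′ on the strand of the gene. Capitals mark CCAAT boxes.
Tubb4b, chr2:25224703-25224952, minus strand: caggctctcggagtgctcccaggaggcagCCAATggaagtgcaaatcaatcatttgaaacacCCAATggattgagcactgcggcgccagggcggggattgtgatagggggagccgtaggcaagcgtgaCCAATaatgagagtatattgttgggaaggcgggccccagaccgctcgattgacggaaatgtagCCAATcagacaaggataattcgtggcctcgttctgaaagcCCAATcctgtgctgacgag

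Motifs were searched on both strands from 250 bases before to 50 bases after the RefSeq start, in the 9 members with such a window (all but Tubb2b). RefSeq starts can differ from those of GENCODE, from which the gene coordinates above come. Those of Tuba1a, Tuba1b, Tuba4a, Tubb3, Tubb4a and Tubb5 lie inside the GENCODE gene. Tubb4b held 5 CCAAT boxes, which begin 221, 188, 122, 59 and 19 bases before the start. Of 32851 promoter windows 37.4% held at least 1 CCAAT, and 89 (0.271%) held 5 or more. The X-box of RFX factors (the palindromic form, in 0.128% of windows), the forkhead word GTAAACA (3.65%) and the E2F word TTTGGCGC (0.514%) were in none of the 9 windows. The RFX half-site GTTGCC (12.5%) was in 1 of them, that of Tuba1c. The TATA word TATAAA (13.6%) began 29 bases before the start in Tubb2a. In Tubb4b it began 18 bases after the start, beyond the stretch printed above. A missing word says only that these letters are not in the window.

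Genes that fold tubulin or act on the polymer were followed in lists chosen by function. The folding and autoregulation list (26 genes), with the CCT chaperonin, prefoldin, the tubulin cofactors and Ttc5, had 0 genes called by edgeR in either comparison with GFP. At an unadjusted p under 0.05 edgeR also gave 0 in both, and DESeq2 called 0. Their log2 fold changes ran from -0.20 to 0.24 in GemC1 and from -0.12 to 0.24 in Mcidas. The list for acetylation and tyrosination of tubulin (7 genes, among them the acetyltransferase Atat1 and the ligase Ttl) had 0 called by edgeR. In GemC1 it gave 1 higher and 1 lower at an unadjusted p under 0.05, and DESeq2 called 1 lower. In Mcidas all of these numbers were 0. The gamma-tubulin ring complex list (11 genes), which nucleates microtubules, had 0 called by edgeR and 0 by DESeq2, with 2 lower in GemC1 and 1 higher in Mcidas at an unadjusted p under 0.05.

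Of 20 neuronal microtubule-associated proteins, 2 rose and 1 fell in GemC1, and 3 rose and 0 fell in Mcidas. Over all genes tested, 3.86% were called higher and 1.32% lower in GemC1, and 4.03% and 0.327% in Mcidas. Tppp3, a tubulin polymerisation-promoting protein also known from ciliated epithelia, rose by 3.15 ± 0.34 in GemC1 and 3.73 ± 0.34 in Mcidas (log2; adjusted p 0.000156 and 3.19e-05 in edgeR) and was called in all 15 alternatives. Map1a, which binds mature neuronal microtubules, rose by 0.74 ± 0.18 in GemC1 and 0.96 ± 0.18 in Mcidas (adjusted p 0.0343 and 0.00684 in edgeR). The GemC1 call of Map1a was lost in 7 of 15 alternatives, and those were the replicate block, the fit of only these groups, and the fits without GemC1 replicate 1 or 3, Mcidas replicate 2, or GFP replicate 1 or 3 (adjusted p up to 0.159). Map6, a microtubule-stabilising protein, rose by 0.48 ± 0.09 in Mcidas (adjusted p 0.00713, edgeR) and had 0.31 ± 0.09 in GemC1 without being called. Dcx, a lattice-binding protein of migrating neurons, fell in GemC1 with a log2 fold change of -0.37 ± 0.08 (adjusted p 0.0233, edgeR), a call that was lost without GemC1 replicate 1 or 2 or GFP replicate 2 or 3 (adjusted p up to 0.122). It had -0.20 ± 0.08 in Mcidas. DESeq2 called 3 higher and 1 lower in GemC1, and 4 higher and 0 lower in Mcidas. At an unadjusted p under 0.05 edgeR gave 4 higher and 9 lower in GemC1, and 4 higher and 2 lower in Mcidas.

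The axoneme list gives the scale of the ciliary change in the same libraries. Of its 22 genes for dyneins, radial spokes, tektins and related parts, 17 rose in GemC1 and 18 in Mcidas, with median log2 fold changes of 3.48 and 4.29. Over all genes tested, 3.86% were called higher in GemC1 and 4.03% in Mcidas. At an unadjusted p under 0.05 edgeR gave 0 lower in both, and DESeq2 called 0 lower. Foxj1, the forkhead regulator of motile cilia that stands in this list, averaged 120 CPM in GemC1, 150 CPM in Mcidas and 1.03 CPM in GFP libraries. Within the Mcidas group the library with the lowest Foxj1 (95.8 CPM) and the lowest axoneme median (3.34 log2 units above the GFP mean) was replicate 1, which also had the lowest Tubb4b, and replicate 3 was highest in all of these, at 183 CPM for Foxj1 and 4.62 for the median. In the GemC1 group Foxj1 (99.6 CPM) and Tubb4b were both lowest in replicate 2, while the axoneme median was lowest in replicate 1, at 3.35, where Tubb4b was highest.

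**Figure D5:**
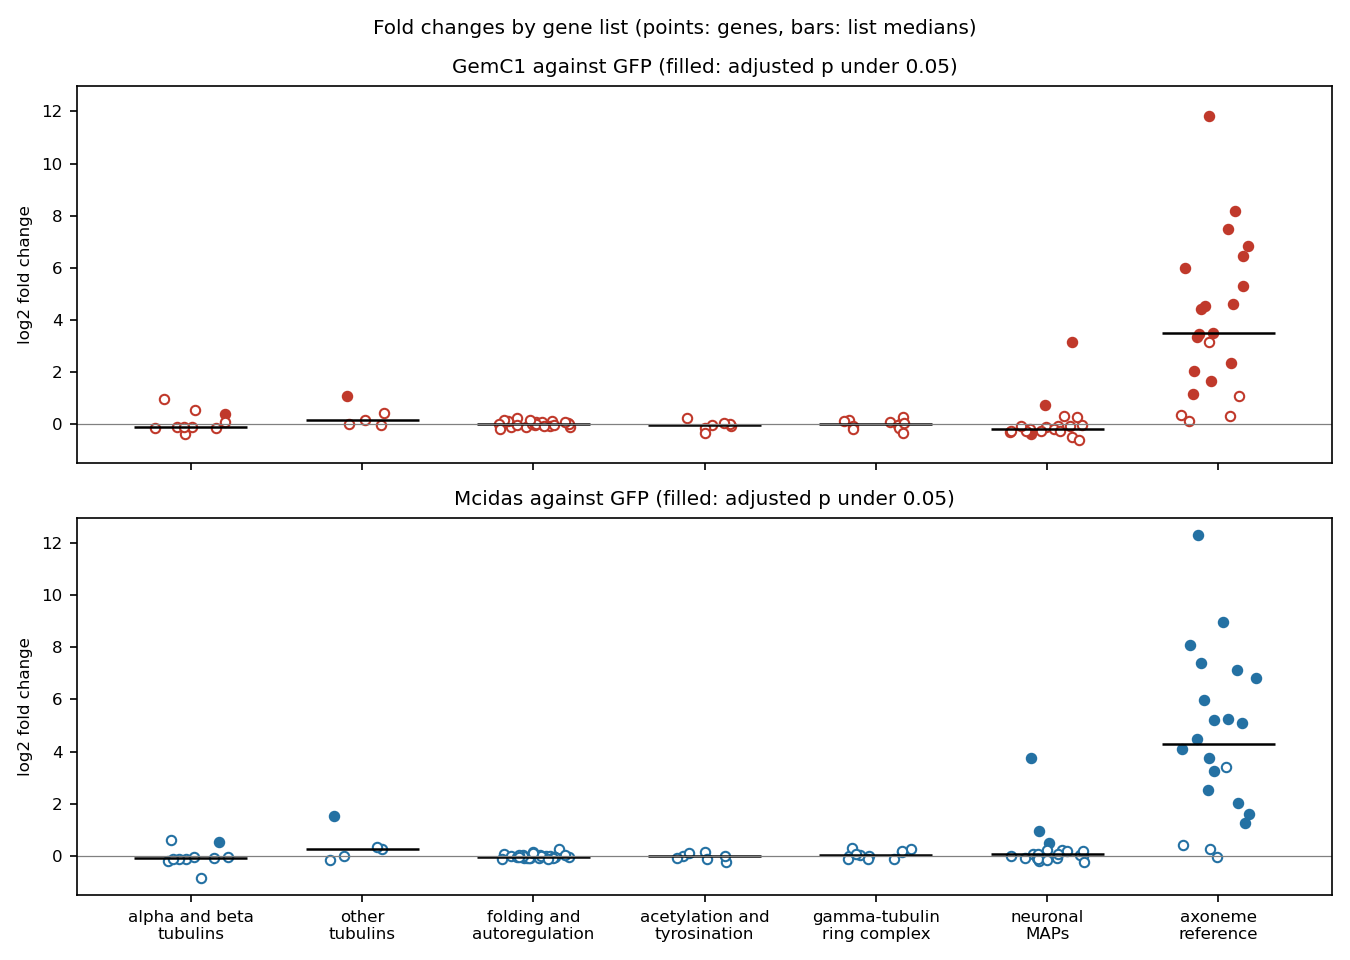
Log2 fold changes over GFP (y axis) of the tested genes in 7 lists, for GemC1 (upper panel) and Mcidas (lower panel), with a point for each gene, filled where the adjusted p was under 0.05, and a bar for the list median. The axoneme list has medians of 3.48 and 4.29, while the alpha and beta tubulins have -0.13 and -0.10.

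Markers of other cells also moved. Of all genes tested, 3.86% were called higher and 1.32% lower in GemC1, and 4.03% and 0.327% in Mcidas. Of 12 microglia markers 7 rose in GemC1 and 2 in Mcidas, with median log2 fold changes of 2.19 and 1.27. At an unadjusted p under 0.05 edgeR gave 10 higher in GemC1 and 7 in Mcidas, and DESeq2 called 10 and 3, with 0 lower throughout. Their summed level was 74.6 to 106 CPM in GemC1, 48.3 to 69 CPM in Mcidas and 32.7 to 45.7 CPM in GFP libraries. None of the markers in these cell type lists was at 0 in all 9 libraries. Of 16 neuron markers, Myt1l was among those that fell in GemC1, where the summed level was 2709 to 2785 CPM, against 3220 to 3894 CPM in GFP libraries. In Mcidas 0 were called by edgeR, with 1 higher and 2 lower at an unadjusted p under 0.05 and 1 each way by DESeq2, and the sum was 2863 to 3384 CPM. Of 13 radial glia markers 0 were called in GemC1 by edgeR, with 4 higher and 1 lower at an unadjusted p under 0.05 and 3 higher and 1 lower by DESeq2, and Hes5 fell in Mcidas. Their summed level was 2299 to 2605 CPM in GemC1, 1689 to 2221 CPM in Mcidas and 1633 to 2196 CPM in GFP libraries. Of 8 intermediate progenitor markers, 0 rose and 1 (Neurog2) fell in GemC1, with 0 higher and 2 lower at an unadjusted p under 0.05 and 0 higher and 1 lower by DESeq2. In Mcidas 0 were called by edgeR, with 1 higher and 4 lower at an unadjusted p under 0.05 and 0 higher and 2 lower by DESeq2, and 7 of the 8 fold changes were negative. Their summed level was 1278 to 1496 CPM in GemC1, 1159 to 1503 CPM in Mcidas and 1478 to 1510 CPM in GFP libraries. The part of these cells in the Tuba1b, Tubb4b, Tubb2b and Tubb3 values was not tested. Of 7 choroid plexus markers only 2, Clic6 and Igf2, passed the filter on low counts, and both were called higher in both comparisons. The rest of that list had too few counts to be tested. Summed choroid plexus markers were 5.35 to 11.7 CPM in GemC1, 2.82 to 9.65 CPM in Mcidas and 0.382 to 0.45 CPM in GFP libraries. Summed endothelial markers stayed at or below 4.69 CPM and summed erythroid markers at or below 27.4 CPM in every library. Summed pericyte and meningeal markers were 6.36 to 19.6 CPM over all libraries.

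The patterns most like those of Tubb4b and Tubb3 over the 9 libraries were looked up among 10069 genes with a mean log2 CPM of at least 3, by Pearson's r of log2 CPM. For Tubb4b these were Endog (r = 0.99), Anxa5 (0.969), Nudt14 (0.968), Ncaph (0.967) and Lrch4 (0.965). Of these 5, Anxa5 was called higher in both comparisons, with log2 fold changes of 1.04 in GemC1 and 1.13 in Mcidas. For Tubb3 they were Disp2 (0.934), Ptcd2 (0.932), Zc4h2 (0.931), Ube2a (0.925) and Srf (0.925), and none of them was called. For Tuba1b, added after its values were seen, they were Cds1 (0.986), Klhdc8b (0.983), Abhd14a (0.98), Efcab11 (0.98) and Cib1 (0.978). Of these 5, 4 were called higher in both comparisons and Klhdc8b in Mcidas alone, with log2 fold changes from 0.38 (Klhdc8b) to 2.59 (Cds1) in GemC1 and from 0.50 (Klhdc8b) to 3.43 (Cds1) in Mcidas. The 9 points share groups, depth and preparation, so these values describe likeness among these libraries only. The genes like Tuba1b were picked for following a gene called higher in both comparisons, so their own calls add no separate evidence.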

How the data were processed

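The authors deposited a table of raw counts for each of 9 libraries, keyed by Ensembl identifier, as the file headers and whole-number values show. Per the labels' protocols, 10 ng of RNA was amplified with SMART-Seq v4 and about 150 pg of cDNA entered Nextera XT libraries read for 75 bp. Build mm10 and the tools HTSeq 0.5.3, STAR 2.5.2b and DESeq2 1.8.1 appear in the submitters' processing notes without a role or order. Annotation, strand setting and handling of multiply mapped reads are likewise not given in the sources used. GENCODE M21 matched 53274 of 53379 identifiers, and the other 105 took at most 0.0676% of a library.

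Counts were tested with edgeR 4.0.16 in R 4.3.3: filterByExpr (minimum count 10, total 15; 19572 genes), TMM scaling, and 1 robust quasi-likelihood fit over all 9 libraries with group as the term, two-sided, with Benjamini-Hochberg adjustment over all genes tested. A gene was called at an adjusted p under 0.05. Intervals are 95%. Levels are mean ± SD over 3 libraries, and per-kb levels use merged exon length. A floor of 3 counts per library covers counting error only. Each pair of replicates had a chi-square of 14.1 to 25.8 per degree of freedom, above sampling noise, so no library was counted as a copy. The procedure was tested on simulated counts.

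The members and lists were chosen with earlier results of these data known. All 10 members are named whatever their values, from every other list up to 3 called genes with the smallest adjusted p in a comparison, and the 5 genes most like Tubb4b and Tubb3. Genes beyond that rule were named after their values were seen. Alternatives were DESeq2 1.42.0, its size factors in edgeR, no or a stricter low-count filter (CPM of 1 in 3 libraries), a fit restricted to the compared groups, a block for the replicate number, and each library left out. Shares were also computed without division by length, and, added after seeing the data, per kb of coding transcript and of unshared windows. Some items are not reported here.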

Additional observations from a re-analysis of the deposited data

How the results depend on the processing

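Of 450 refits of the 30 member fold changes (15 alternatives each), 414 kept their direction and their side of the threshold, 7 lost a call, 7 gained one and 22 changed sign. The 7 lost calls were all Tuba1b in GemC1 against GFP, and the gains were Tubb4b and Tubb2b. The groups share replicate numbers, but libraries with the same number did not deviate together (correlations from -0.21 to 0.048). Pairs with different numbers ran from -0.087 to 0.241. With 3 libraries per group this check cannot exclude a pairing, such as by litter, and the main fit used none. With the replicate number as a block, Tuba1b in GemC1 had an adjusted p of 0.0726 in edgeR, members called higher in GemC1 became 0, genes called lower became 147 in GemC1, and genes lower in GemC1 against Mcidas became 3.

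DESeq2 gave, for GemC1 against GFP, 2 members higher and 1 lower, and 1154 genes higher and 663 lower, where edgeR had 756 and 259. For Mcidas against GFP it gave 2 members higher and 127 genes lower, where edgeR had 64. For GemC1 against Mcidas it gave 196 genes higher and 298 lower, where edgeR had 3 and 7. With no low-count filter 1 member was lower in GemC1, with 557 genes lower in GemC1, 123 lower in Mcidas, and 66 higher and 129 lower in GemC1 against Mcidas. Fitting only the groups compared gave 2 members higher in GemC1, and 2 genes lower in GemC1 against Mcidas.

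Leaving out each library gave 0 to 2 members and 443 to 877 genes higher and 32 to 267 genes lower in GemC1, 1 to 2 members higher and 29 to 99 genes lower in Mcidas, and 3 to 5 genes higher and 1 to 8 lower in GemC1 against Mcidas. The lowest numbers for GemC1 came without GFP replicate 3 (443 higher and 32 lower) and without GFP replicate 2 (472 and 42), and for Mcidas 29 were lower without Mcidas replicate 2. Fewer libraries enter those fits. The cause of the other shifts was not tested.

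None of the values that changed sign was called. Tubb5 in GemC1 against Mcidas, at 0.001, became -0.01 with DESeq2 and with its size factors, -0.002 with no filter, -0.016 with the stricter filter, -0.001 with only these groups, and -0.036 to 0.042 on leaving out a library. The other sign changes came from leaving out 1 library, with values over all 15 alternatives from -0.054 to 0.269 for Tuba4a in GemC1, from -1.766 to 0.325 for Tuba1c in Mcidas, from -0.186 to 0.091 for Tuba4a in Mcidas and from -0.128 to 0.041 for Tubb4a in Mcidas. For GemC1 against Mcidas, also over all 15, they ran from -0.091 to 0.102 for Tuba1a, from -0.102 to 0.021 for Tubb2a, from -0.061 to 0.087 for Tubb3 and from -0.295 to 0.128 for Tubb4b.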
